A study of Mus musculus with 2 samples.

Results

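The genes examined here are the core of the Hedgehog and PTHrP signalling pathways, chosen by symbol as a list of 9: *Ihh*, *Pthlh*, *Pth1r*, *Ptch1*, *Smo*, *Sufu*, *Gli1*, *Gli2* and *Gli3*. All 9 were among the 23628 genes listed in each library. The series holds 2 RNA-sequencing libraries of 1 condition, named replicate 1 and replicate 2. They were made from Sox9GFPHi chondrospheres, colonies that grew from GFP-high cells of the femoral heads of homozygous Sox9 IRES-EGFP reporter pups at postnatal day 7. The sort took live cells without the endothelial, erythroid and leukocyte surface markers CD31, Ter119 and CD45, and the cells were then plated sparsely in methylcellulose under low oxygen with FGF2, BMP4, IGF1, LIF and TGF-β1 in serum-containing medium. Neither a Hedgehog nor a PTHrP protein is named among the supplements, all cells came from reporter animals, and no control group was analysed here. The methods treat each pup as a biological replicate, but the labels do not say that these libraries came from different pups, and the spread between them may be partly technical.

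Indian hedgehog (IHH) is the Hedgehog ligand of the growth plate, where prehypertrophic chondrocytes make it. It binds Patched, which otherwise holds back Smoothened, and active Smoothened turns GLI transcription factors from repressors into activators. PTHrP, the product of *Pthlh*, comes from periarticular and resting chondrocytes in response to IHH, acts through the PTH1R receptor on chondrocytes nearer to hypertrophy, and delays their maturation in a feedback loop.

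Values are counts-per-million (CPM), each gene's reads scaled to the library's total over genes. The smallest steps between values imply about 43300000 reads on genes for replicate 1 and 42200000 for replicate 2, so 3 reads, taken as the lowest level the depth can show, equal 0.0693 and 0.0712 CPM. The 10 highest genes held 43.4% and 34.7% of all CPM, and replicate 2 exceeded replicate 1 by a median of 0.30 on the log2 scale over the 12631 genes that averaged 1 CPM or more. Differences between the libraries are therefore given after subtracting that median. The chondrocyte markers *Col2a1*, *Acan*, *Sox9*, *Comp*, *Matn1*, *Col9a1*, *Col11a1* and *Hapln1* were all present, with values between 29.2 and 148953 CPM. Their levels were not all alike in the libraries, and *Matn1* had 902 CPM in replicate 1 against 29.2 in replicate 2. Of 5 endothelial markers, 4 were listed at 0 in both libraries and the list summed to at most 0.231 CPM, while 5 blood cell markers summed to at most 2.73 CPM. In bulk RNA such as this, fewer cells of a type and less RNA per cell cannot be told apart.

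In the Sox9GFPHi chondrospheres the receiving side of both pathways was present and the ligands were near the limit of detection. *Pth1r*, the receptor of PTHrP, had the highest level of the 9 genes, and *Smo*, the Hedgehog signal transducer, came next. *Ptch1*, *Sufu*, *Gli2* and *Gli3* had intermediate levels. *Ihh*, *Pthlh* and *Gli1* had means under 1 CPM and rested on at most 18 reads in either library.

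**Figure D1:**
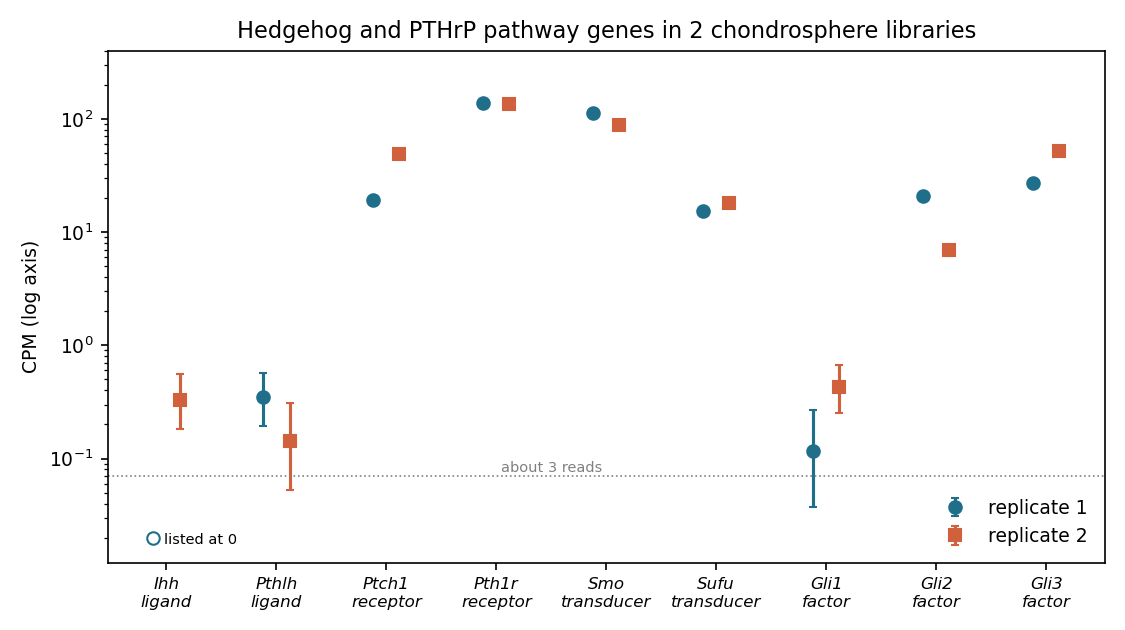
CPM of each of the 9 genes (log axis) in replicate 1 (circles) and replicate 2 (squares), with exact Poisson 95% intervals that cover counting error only. *Pth1r* and *Smo* sit at or above 89.2 CPM in both libraries, while *Ihh*, *Pthlh* and *Gli1* stay at or below 0.427 CPM, near the dotted line at 3 reads, and *Ihh* is listed at 0 in replicate 1 (open circle).

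The ligand gene *Ihh* (chromosome 1 of GRCm38, 74945315 to 74951672) was listed at 0 for replicate 1 and at 0.332 CPM for replicate 2. The latter corresponds to about 14 reads, with an exact Poisson 95% interval of 0.182 to 0.557 CPM. The same interval for the zero of replicate 1 reaches 0.0852 CPM, where 3 reads equal 0.0693 CPM. *Ihh* was thus detected in 1 library and not detectable at this depth in the other. The 10 widely expressed genes checked for failed estimates were all well above 0. At 15.0 CPM or more, they cannot test the estimate of a gene as low as *Ihh*. *Dhh*, which encodes desert hedgehog, was listed at 0 in both libraries, and *Shh* was not analysed here. *Pthlh* (chromosome 6, 147252101 to 147264183) was measured at 0.347 CPM in replicate 1 against 0.142 in replicate 2, or 15 and 6 reads. In CPM without centring, replicate 2 had 0.411 times the level of replicate 1, with an exact 95% interval of 0.131 to 1.12. After centring, the log2 ratio was -1.19 with a counting error of 0.70, so few reads carry the difference.

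Of the receptor genes, *Pth1r*, a Gs- and Gq-coupled receptor gene (chromosome 9, 110722085 to 110747145), was measured at 137.3 CPM in replicate 1 against 136.7 in replicate 2 (mean 137 ± 0.364 CPM, SD, n = 2). Its CPM were nearly equal in both libraries, and its log2 ratio was -0.31 once the median of all genes was subtracted. *Ptch1*, on chromosome 13 from 63508328 to 63573598, encodes the Hedgehog receptor and is itself a target gene of the pathway. It had 19.2 CPM in replicate 1 against 49.3 in replicate 2 (mean 34.3 ± 21.3 CPM, SD, n = 2). *Ptch1* was the member with the largest difference towards replicate 2 among the 6 members that averaged 1 CPM or more.

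The transducers differed less between the libraries than *Ptch1* did. *Smo* (chromosome 6, 29735503 to 29761365) was measured at 113.5 CPM in replicate 1 against 89.2 in replicate 2 (mean 101 ± 17.2 CPM, SD, n = 2). *Sufu*, on chromosome 19 from 46396896 to 46488804, encodes the protein that holds GLI factors inactive in the cytoplasm. It had 15.3 and 18.0 CPM, a mean of 16.7 ± 1.95 CPM (SD, n = 2), a value slightly higher in replicate 2, and its log2 ratio after centring, -0.07, was smaller than its counting error of 0.08.

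Of the GLI factor genes, *Gli2* was higher in replicate 1 and the other two in replicate 2. *Gli1*, on chromosome 10 from 127329882 to 127341974, encodes an activator that Hedgehog signalling itself induces and that serves as a readout of the pathway. It had 0.116 CPM in replicate 1 against 0.427 in replicate 2, or 5 and 18 reads. Without centring, replicate 2 had 3.70 times the level of replicate 1, with an exact 95% interval of 1.32 to 12.7 that covers counting error only. After centring, the log2 ratio was 0.99 with a counting error of 0.73. Both CPM values were low. The annotated locus of *Gli1* overlaps *Arhgap9* on the opposite strand, which had at most 0.0462 CPM. *Gli2*, on chromosome 1 from 118834132 to 119053619, encodes the main activator of the initial response. It had 20.7 CPM in replicate 1 against 6.93 in replicate 2 (mean 13.8 ± 9.76 CPM, SD, n = 2). *Gli3*, on chromosome 13 from 15463235 to 15730026, encodes the main repressor in the absence of ligand. It had 26.9 CPM in replicate 1 against 52.0 in replicate 2 (mean 39.4 ± 17.7 CPM, SD, n = 2). *Pth1r* and *Gli3* also overlap genes on the opposite strand, *Myl3* at no more than 0.738 CPM and *Gm6556* at no more than 0.482 CPM, and the strand setting of the counting is not known here.

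The promoter windows of *Ptch1* and *Gli2* are shown because these were the members that differed by more than 2-fold between the libraries, in opposite directions. The RefSeq table for GRCm38.p6 held 10 start windows for 8 of the 9 members, with 3 for *Pth1r* and none for *Gli1*. Each sequence gives the 250 bases before the annotated start, 5′ to 3′ on the minus strand, at chr13:63565736-63565985 for *Ptch1* and chr1:119053620-119053869 for *Gli2*. The *Ptch1* start is that of the RefSeq window, and it lies inside the span given above because longer annotated transcripts begin farther upstream. Capitals mark the hexamer CCACCC, or GGGTGG on the other strand, which lies inside the GLI consensus GACCACCCA.

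*Ptch1*: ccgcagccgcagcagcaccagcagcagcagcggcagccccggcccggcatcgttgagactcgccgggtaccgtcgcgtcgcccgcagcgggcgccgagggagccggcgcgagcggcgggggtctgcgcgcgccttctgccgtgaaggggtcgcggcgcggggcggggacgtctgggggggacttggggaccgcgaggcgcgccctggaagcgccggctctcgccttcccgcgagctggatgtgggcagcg

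*Gli2*: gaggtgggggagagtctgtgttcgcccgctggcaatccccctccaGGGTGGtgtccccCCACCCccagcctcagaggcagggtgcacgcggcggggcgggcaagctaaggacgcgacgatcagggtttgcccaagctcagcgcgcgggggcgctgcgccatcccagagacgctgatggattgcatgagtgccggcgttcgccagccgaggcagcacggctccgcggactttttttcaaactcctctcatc

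The *Gli2* window held the hexamer at 205 and at 192 bases before the start, and the *Ptch1* window did not hold it. Matches were also found for *Ihh*, *Pthlh*, *Smo* and *Gli3*, so 5 of the 10 member windows held it against 28.1% of all 32851 windows. The hexamer overlaps the CACCC letters of other zinc finger motifs. The whole GLI consensus GACCACCCA, or its reverse complement TGGGTGGTC, was found in none of the member windows and in 0.225% of all windows. With any base at the fifth place (GACCNCCCA), the share of all windows was 0.868%, and the cAMP response element TGACGTCA was in 1.55%, again with no match among the members. These matches describe letters in short windows and do not show binding.

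Levels of different genes are compared per kilobase of annotated exons. On this scale *Pth1r* was first in both libraries at 46.9 and 46.8 CPM per kilobase, at percentiles 95.7 and 94.7 of the genes that averaged 1 CPM or more. *Smo* was next in both, at 20.2 and 15.9 CPM per kilobase, and *Pth1r* lay above it by 1.39 ± 0.24 on the log2 scale (SD, n = 2). *Gli3* had 2.81 and 5.42 CPM per kilobase, *Gli2* 3.02 and 1.01, *Sufu* 1.99 and 2.34, and *Ptch1* 1.35 and 3.48. After *Gli3* in the order of means, *Ptch1*, *Sufu* and *Gli2* were not separated from each other beyond their spread. The log2 ratio of *Ptch1* to *Sufu* was -0.55 in replicate 1 and 0.57 in replicate 2, and that of *Sufu* to *Gli2* was -0.60 and 1.22. *Gli3* was not set apart from *Gli2* either, which lay above it in replicate 1. The level of *Ptch1* rests on 14185 bases of annotated exons, where its longest coding transcript has 7725. For *Sufu* these lengths are 7691 and 4522 bases, and for *Gli3* 9589 and 8170. The place of *Gli3* above *Ptch1* and *Sufu* therefore depends on the choice of length. *Pthlh*, *Ihh* and *Gli1* formed the low end, at no more than 0.214 CPM per kilobase, and *Gli2* lay above *Pthlh* by 3.67 ± 0.21 on the log2 scale (SD, n = 2). That SD may understate the error, since *Pthlh* rests on 15 and 6 reads.

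**Figure D2:**
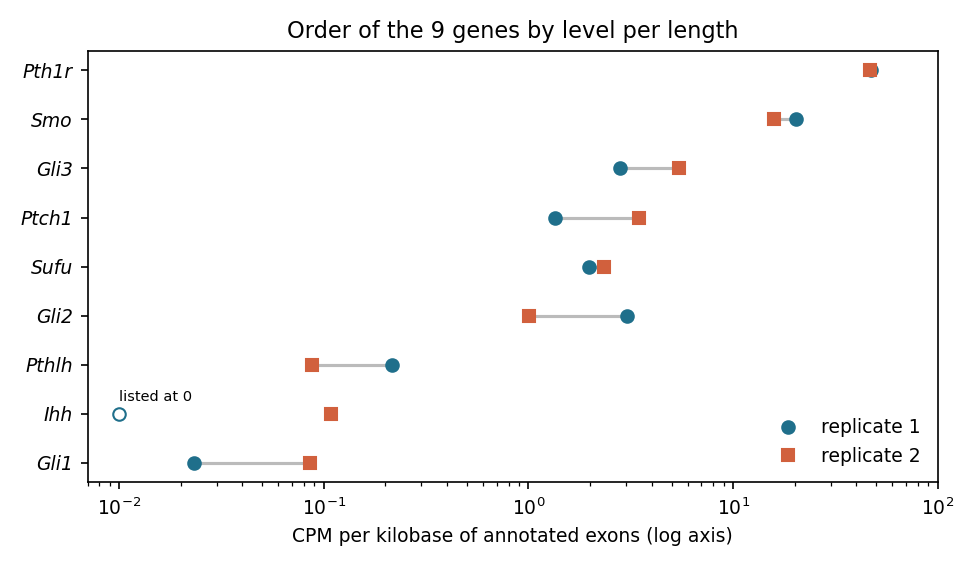
Level of each gene in CPM per kilobase of annotated exons (log axis), ordered by the mean of replicate 1 (circles) and replicate 2 (squares). *Pth1r* and *Smo* hold the first places in both libraries, the points of *Ptch1*, *Sufu* and *Gli2* cross, and *Ihh*, *Pthlh* and *Gli1* lie at or below 0.214 CPM per kilobase (the open circle stands for *Ihh* listed at 0).

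A ratio of members within 1 library is free of that library's scaling. For PTHrP, the receptor gene exceeded the ligand gene per length by log2 ratios of 7.78 and 9.05, or 219-fold in replicate 1 and 532-fold in replicate 2, a mean of 8.42 ± 0.90 (SD, n = 2). For Hedgehog, *Ptch1* was below *Smo* by log2 ratios of -3.90 and -2.19 (14.9-fold and 4.56-fold lower), a mean of -3.04 ± 1.21 (SD, n = 2). *Sufu* was also below *Smo*, by a mean log2 ratio of -3.05 ± 0.42 (SD, n = 2). *Ptch1* was below *Pth1r* by a mean of -4.43 ± 0.97 and *Pthlh* below *Ptch1* by a mean of -3.98 ± 1.87 (SD, n = 2 each). Each of these mean ratios exceeded its SD between the libraries. The ratios with *Pthlh* also carry the counting error of its 15 and 6 reads.

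The factors *Gli2* and *Gli3* both exceeded *Gli1* per length in each library. For *Gli3* the log2 ratio to *Gli1* was 6.92 in replicate 1 and 5.99 in replicate 2, and for *Gli2* it was 7.03 and 3.56. These ratios carry the counting error of the few *Gli1* reads. The order of *Gli3* and *Gli2* was not the same in both libraries. *Gli3* to *Gli2* had a log2 ratio of -0.10 in replicate 1 and 2.43 in replicate 2, a mean of 1.16 that did not exceed its SD of 1.79. In replicate 1 the levels per length were nearly equal, and in replicate 2 *Gli3* was 5.37-fold above *Gli2*.

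Between the libraries, 2 of the 6 members that averaged 1 CPM or more differed by more than 2-fold after centring, against 13.5% of all 12631 genes tested. The other 3 members, *Ihh*, *Pthlh* and *Gli1*, did not reach that mean and were not counted. *Ptch1* was higher in replicate 2, with a centred log2 ratio of 1.05 and a counting error of 0.06, or 2.08-fold. *Gli2* was lower in replicate 2, with a centred log2 ratio of -1.87 and a counting error of 0.10, or 3.66-fold. *Gli3* was within 2-fold at 0.64, as were *Smo* at -0.65, *Pth1r* at -0.31 and *Sufu* at -0.07. The median of the 6 was -0.19, where the median of all genes is 0 by construction and their SD is 0.83. With 1 library on each side and so few members, these counts are a description, and no p-value was computed.

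**Figure D3:**
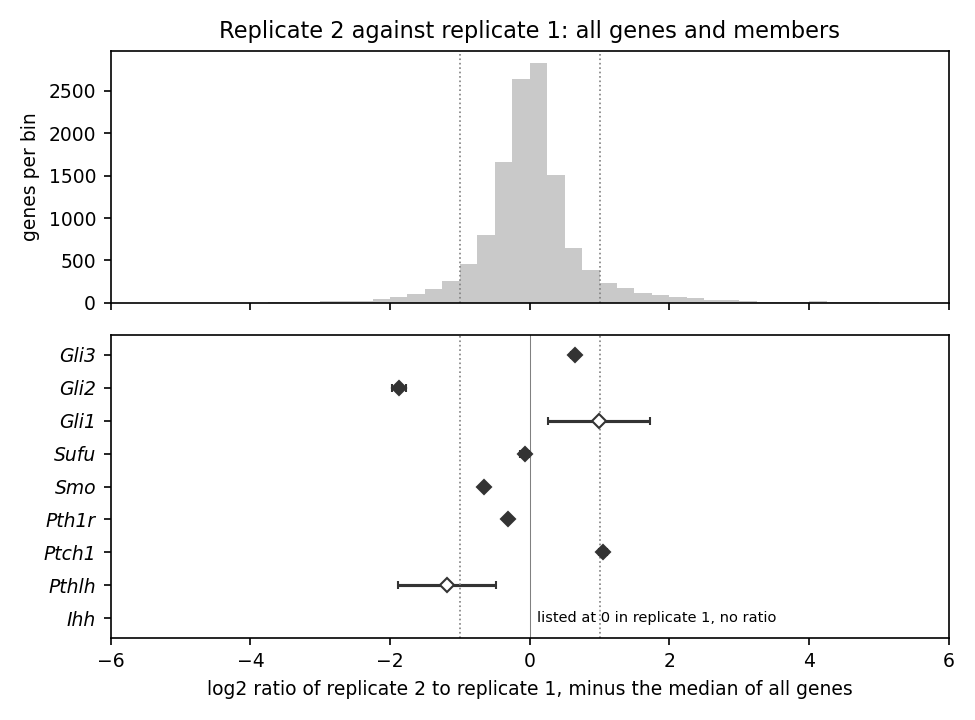
Log2 ratio of replicate 2 to replicate 1 minus the median of all genes, for the 12631 genes averaging 1 CPM or more (histogram) and for the members (diamonds, bars are counting error, open diamonds mark means under 1 CPM, and *Ihh*, listed at 0 in replicate 1, has none). Dotted lines mark 2-fold, and among the filled diamonds *Ptch1* lies just past the line at 1.05 and *Gli2* well past it at -1.87, on opposite sides.

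The genes around the 9 members were followed in lists by role. Among those for making and releasing the ligand, all 8 averaged 1 CPM or more, and 2 were more than 2-fold higher and 1 lower in replicate 2, against 7.43% and 6.06% of all genes (median centred log2 ratio 0.13). *Ext2* and *Ext1*, which build the heparan sulfate that Hedgehog proteins bind, had the highest means, with 95.3 and 125 CPM for *Ext2* and 59.1 and 117 CPM for *Ext1*. *Disp1*, which encodes the transporter that releases the lipid-modified ligand, had 29.4 CPM in replicate 1 against 41.1 in replicate 2. The secreted SCUBE proteins, which help release the ligand, differed between the libraries in opposite directions. *Scube1* had 3.40 CPM in replicate 1 against 40.4 in replicate 2, and *Scube3* had 0.396 and 5.43 CPM. *Scube2* had 8.92 CPM in replicate 1 against 0.759 in replicate 2, a centred log2 ratio of -3.70. Both *Scube2* and *Scube3* reached the mean of 1 CPM only through the library in which they were high. With a mean of at least 10 CPM required, 1 gene of this list was past 2-fold.

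Of the genes for Hedgehog receptors and surface binding proteins, 9 of 10 were analysed and 5 reached a mean of 1 CPM. *Ptch1* was the 1 gene past 2-fold higher and 2 were lower in replicate 2, 3 of 5 against 13.5% of all genes (median -0.78 on the same scale). *Gas1*, which encodes a surface protein that promotes Hedgehog binding, had 142.5 CPM in replicate 1 against 10.6 in replicate 2, a centred log2 ratio of -4.04 or 16.4-fold. *Boc*, another coreceptor gene, had 23.0 and 11.9 CPM, and its relative *Cdon* had 337 and 242 CPM, the highest mean of the list. *Gpc6*, a glypican gene, had 139 and 182 CPM. *Gas1*, *Boc* and *Cdon* therefore had lower values in replicate 2, *Cdon* by less than 2-fold at a centred log2 ratio of -0.78, while *Gpc6* had a higher CPM. *Hhip*, which encodes a decoy receptor and is a feedback target, was listed at 0 for replicate 1 and at 0.237 CPM, or 10 reads, for replicate 2.

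The next list held genes that carry the signal inside the cell. All 20 genes of the list of transducers and GLI regulators, *Smo* and *Sufu* among them, were within 2-fold, with centred log2 ratios from -0.65 to 0.84 and a median of 0.10, where 13.5% of all genes were past 2-fold. Without centring, 2 of the 20 were past it. Among the genes with high means were *Prkar1a*, a regulatory subunit gene of protein kinase A, with 122 and 192 CPM, and *Csnk1a1*, a casein kinase gene, with 115 and 157 CPM. Of 30 genes of the primary cilium, in which vertebrate Hedgehog signalling takes place, 29 reached a mean of 1 CPM and 2 were past 2-fold, both lower in replicate 2, against 13.5% of all genes past 2-fold either way, with a list median of -0.11. These were *Bbs1*, with 6.77 and 3.84 CPM, and *Bbs2*, with 11.4 and 6.95 CPM, at centred log2 ratios of -1.10 and -1.01 and with counting errors of 0.14 and 0.11. Both calls ended without centring, with a pseudocount of 1 CPM or with a mean of at least 10 CPM required. The highest means of that list were *Pkd2* at 176 and 166 CPM, *Tulp3* at 43.0 and 64.3 CPM and *Ift20* at 41.0 and 53.2 CPM.

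**Figure D4:**
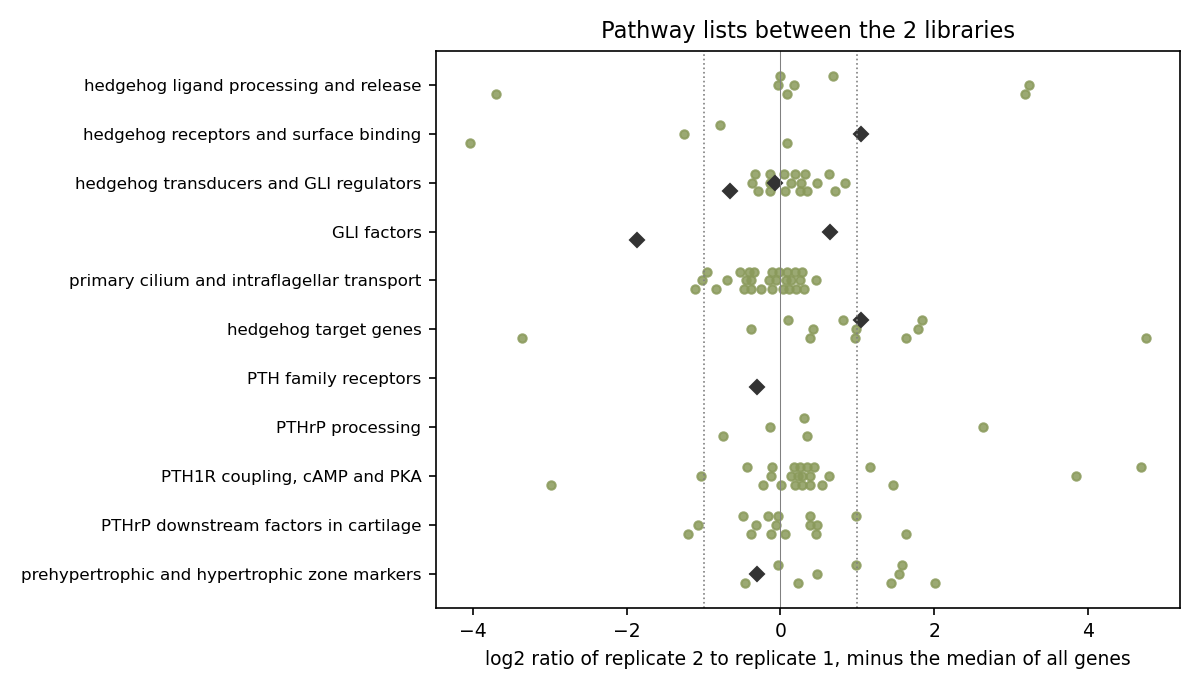
Log2 ratio of replicate 2 to replicate 1 minus the median of all genes, 1 point per gene that averaged 1 CPM or more in each list (dark diamonds are members, dotted lines mark 2-fold). The transducers lie between -0.65 and 0.84, whereas the target list runs from -3.36 to 4.75. Its low end is *Osr2*, which reached the mean of 1 CPM only through replicate 1 and so had to differ.

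Of 20 genes described as Hedgehog targets in cartilage or other tissues, 13 reached a mean of 1 CPM. More than 2-fold higher in replicate 2 were 5 of them, against 7.43% of all genes, and 1 was lower, against 6.06%. The median centred log2 ratio of the 13 was 0.97. *Bmp2*, a bone morphogenetic protein gene, had 2.26 CPM in replicate 1 against 78.6 in replicate 2, a centred log2 ratio of 4.75. *Foxf1*, a forkhead factor gene, had 2.56 and 11.2 CPM, and *Ccnd1*, which encodes cyclin D1, had 54.2 and 207 CPM. *Spp1*, which encodes osteopontin, had 4620 and 20524 CPM, the highest level of the list. *Osr2*, an odd-skipped factor gene, went the other way with 4.09 and 0.403 CPM. This gene reached the mean of 1 CPM only through replicate 1 and so had to differ. The fifth gene higher in replicate 2 was *Ptch1*. The feedback targets *Gli1* and *Hhip* did not reach the mean of 1 CPM, and *Ccnd2*, with 431 and 568 CPM, was within 2-fold at 0.09.

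Marker lists of neighbouring cell types also differed between the libraries. The 7 osteoblast and osteocyte markers summed to 5.18 CPM in replicate 1 against 53.5 in replicate 2, of which *Dmp1* alone made 40.4 CPM. Of the 4 averaging 1 CPM or more, 3 were higher past 2-fold, *Sp7*, *Alpl* and *Dmp1*, against 7.43% of all genes, and the latter pair passed only through replicate 2. Of the rest of this list, *Ibsp* had 2.24 CPM in replicate 1 against 3.27 in replicate 2, within 2-fold, and *Phex* had 0.323 and 0.807 CPM. *Bglap* had at most 0.229 CPM and *Sost* was listed at 0 in both libraries. The 8 fibroblast and perichondrium markers summed to 5695 CPM in replicate 1 against 4203 in replicate 2, and 3 of the 7 averaging 1 CPM or more, *Col1a1*, *Dcn* and *Postn*, were lower past 2-fold, against 6.06% of all genes. The 8 chondrocyte markers summed to 187406 CPM in replicate 1 against 129639 in replicate 2, of which *Col2a1* made 148953 and 100682 CPM. Of the 8, *Matn1* and *Col9a1* were lower past 2-fold and none was higher, against 6.06% and 7.43% of all genes. The centred log2 ratio of *Matn1* was -5.25, whereas those of *Col2a1*, *Sox9* and *Hapln1* were -0.87, -0.16 and 0.16. The part of these cell types in the differences of *Ptch1*, *Gli2*, *Gas1*, *Bmp2* and the other genes above was not tested.

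On the PTHrP side, genes for processing the ligand were present although the ligand gene was low. *Pcsk5*, *Furin* and *Pcsk6*, which encode proprotein convertases, had means of 483 ± 104, 174 ± 14.9 and 135 ± 40.0 CPM (SD, n = 2 each). Of the 7 genes of this list, 6 were analysed and 5 reached a mean of 1 CPM, and *Mme*, a peptidase gene, was the 1 past 2-fold, against 13.5% of all genes, with 1.39 CPM in replicate 1 against 11.3 in replicate 2. *Pth*, *Pth2* and *Pth2r* were not analysed here.

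The next list held genes of PTH1R coupling and of cyclic AMP signalling, including genes that limit it. Of 28 genes for G proteins, adenylyl cyclases, protein kinase A and their regulators, 24 reached a mean of 1 CPM, 4 were more than 2-fold higher and 2 lower in replicate 2, against 7.43% and 6.06% of all genes, and the median was 0.27. *Gnas*, which encodes the stimulatory G protein subunit, had 985 and 1131 CPM, far above the next gene of the list, *Prkar1a*. *Adcy2* had the highest mean of the adenylyl cyclases, with 136.6 CPM in replicate 1 against 82.4 in replicate 2, a centred log2 ratio of -1.03. *Ramp2*, which encodes a receptor activity-modifying protein that pairs with PTH1R and other receptors, had 2.34 and 0.283 CPM. *Rgs2*, a gene for a G protein regulator, had 12.3 and 34.3 CPM, and *Prkar1b* 4.37 and 15.1 CPM. *Adcy1* was listed at 0 for replicate 1 and at 3.08 CPM for replicate 2, and *Prkar2b* had 0.0231 and 2.09 CPM. Like *Scube3*, *Osr2* and *Ramp2*, the latter pair reached the mean of 1 CPM only through the library in which it was high and so had to differ.

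Downstream of PTHrP, all 16 genes of the cartilage list reached a mean of 1 CPM, with 1 higher and 2 lower past 2-fold, against 7.43% and 6.06% of all genes, and a median of -0.05. *Sox9*, a target of protein kinase A in chondrocytes, had 252 and 279 CPM, *Ccnd1*, the gene past 2-fold higher, the values given above, and *Ppp1ca*, a phosphatase gene, 74.0 and 126 CPM. Lower past 2-fold in replicate 2 were *Runx3*, with 6.05 and 3.51 CPM, and *Cdkn1c*, which encodes the cell cycle inhibitor p57, with 4.27 and 2.24 CPM, and both calls ended without centring, with a pseudocount of 1 CPM or with a mean of at least 10 CPM required. *Zfp521*, *Sik3*, *Hdac4* and *Mef2c*, through which PTHrP acts on hypertrophy, were within 2-fold, at centred log2 ratios of -0.06, -0.03, 0.38 and 0.48. *Nkx3-2*, a PTHrP-dependent repressor gene, had 3.44 CPM in replicate 1 against 3.25 in replicate 2, a centred log2 ratio of -0.38.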

How the data were processed

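RNA-sequencing values of 2 libraries of 1 group were analysed. The deposited values are CPM. The authors made them with Partek Flow 10.0.21.0801 from STAR 2.7.3a alignments to GRCm38 with GENCODE M25, by Partek E/M quantification with default parameters. Tool names and versions are also in the submitters' processing notes. E/M can divide reads among genes, and the strand setting is not given in the sources used here.

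An offset of 0.0001 CPM was subtracted. The most common lowest value was taken as 1 read, and 65.3% and 64.0% of low values were whole multiples of it (within 0.05 reads), so reads were not recovered, implied reads are approximate and no count model was fitted. Counting errors and exact intervals (95%) use implied reads rounded to whole numbers and cover counting error only.

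Log2 ratios between libraries used a pseudocount of 0.1 CPM, which understates differences of low genes, a filter that kept genes averaging 1 CPM or more and the median of all such genes as zero. Past 2-fold means beyond 1 or -1 on that scale. Single-gene ratios with an interval use no pseudocount and no centring. Lengths and places come from GENCODE M21 on the same build, in which 97.2% of listed genes and all members matched 1 gene. Percentiles are among matched genes averaging 1 CPM or more.

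The members and gene lists were chosen with earlier results of these data known. Named were the members, and of each list the 3 highest genes, the genes past 2-fold and every gene of lists of at most 5, apart from genes not reported here. *Hhip*, *Runx2*, *Nkx3-2*, *Zfp521*, *Sik3*, *Hdac4*, *Mef2c* and single cell type markers were added after their values were seen. The promoter hexamer was also chosen after seeing the windows. The computation was tested on simulated data. Alternatives covered scaling, pseudocount, filter, centring, length and leaving out each library. Computation used scipy 1.17.1, pandas 2.3.3 and numpy 2.4.6 under Python 3.11.15, and figures matplotlib 3.10.9.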

Additional observations from a re-analysis of the deposited data

How the results depend on the processing

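For 29 results, 132 values were recomputed with 1 choice changed at a time. Of the recomputed values, 101 stayed within the SD of the replicates, within 0.109 for the members' median (its counting interval) or within 1.5 times for counts, 29 went beyond that and 2 reversed. Leaving out 1 of 2 libraries moves a mean by less than 1 SD by arithmetic, and centring undoes nearly all effect of another scaling on ratios between libraries, so agreement there is no sign of stability. *Ptch1* and *Gli2* were past 2-fold under every alternative run, with *Ptch1* between 1.03 and 1.36 and *Gli2* between -1.89 and -1.57.

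The median log2 ratio of the members, -0.19, reversed to 0.12 without centring, because all genes then shift by 0.30, and was -0.0222 with genes above 0 in either library, which admits all 9 members, of which 5 were then past 2-fold. The log2 ratio of *Gli3* to *Gli2* ranged from -0.10 to 2.43 when replicates were left out, so its direction rests on replicate 2.

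When the total omitted the 10 highest genes, which raises every level by construction, the mean was 0.413 CPM for *Pthlh*, 225 for *Pth1r*, 168 for *Smo*, 27.2 for *Sufu* and 63.4 for *Gli3*. *Pth1r*, whose SD is small, was 138 CPM (137.8 and 137.9) with the trimmed mean of log ratios and the upper quartile. Without division by length, the log2 ratio was -1.71 for *Ptch1* to *Smo*, -2.15 for *Ptch1* to *Pth1r*, 7.40 for *Gli3* to *Gli1*, -2.60 for *Sufu* to *Smo* and -7.11 for *Pthlh* to *Ptch1*, each in the same direction.

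Counts of list genes past 2-fold also changed. Another filter alters both the genes counted and the median on which ratios are centred. With a mean of at least 10 CPM they were 1 for ligand processing and release, 0 for the cilium, 0 for PTHrP processing, 2 for PTH1R coupling, 1 for PTHrP downstream factors and 1 for hypertrophic zone markers. With genes above 0 they were 5 for Hedgehog receptors, 2 for the GLI factors, 1 for the cilium and 13 for Hedgehog targets. Without centring they were 2 for the transducers and 0 for the cilium, and with a pseudocount of 1 CPM 0 for the cilium, 1 for PTHrP downstream factors and 2 for zone markers. No paired analysis was possible because the labels give 1 group.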

Other observations

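The zone in which *Ihh* and *Pth1r* are normally made was also followed through 11 prehypertrophic and hypertrophic markers. *Col10a1*, the collagen X gene of hypertrophic chondrocytes, had 1752 and 2109 CPM and *Vegfa* 103 and 93.1 CPM, beside *Ihh* at 0 and 0.332 CPM. Of the 10 markers averaging 1 CPM or more, which include *Alpl* and *Panx3* only through their replicate 2 values, 4 were more than 2-fold higher in replicate 2 and none was lower, against 7.43% and 6.06% of all genes. These were *Mmp13*, a collagenase gene, with 8.96 and 44.8 CPM, *Sp7*, which encodes osterix, with 1.96 and 6.81 CPM, *Panx3*, a pannexin gene, with 0.670 and 2.75 CPM, and *Alpl*, the tissue-nonspecific alkaline phosphatase gene, with 0.462 and 1.92 CPM. At its replicate 1 value *Alpl* had to differ by more than 2-fold to be counted. *Runx2*, with 16.2 and 39.6 CPM, lay just inside 2-fold at a centred log2 ratio of 0.98, and *Mef2c* had 7.07 and 12.2 CPM.

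Other marker lists were low or split. The 4 adipocyte markers came to 8.80 and 12.1 CPM, with *Adipoq* and *Plin1* listed at 0 in both. The 4 nerve and Schwann cell markers analysed summed to 488 and 277 CPM, nearly all from *S100b*, which chondrocytes also express.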
